A study of Mus musculus with 12 samples.

Results

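The Hedgehog pathway genes of the mouse forelimb were followed in this account. They were the ligand genes Shh and Ihh, the receptor and co-receptor genes Ptch1, Smo and Boc, and Hhip, whose protein sequesters the ligands. The transcription factor genes Gli1, Gli2 and Gli3 completed the set. All of these genes were chosen by name. All 9 were found among the 51826 gene identifiers of the forelimb count table, and all 9 were among the 19987 genes that passed the filter on low counts. The libraries came from forelimbs of E12.5 mouse embryos. There were 2 wild-type (WT) libraries and 2 of the genotype Impdh2 Prx-cKO, a conditional knockout of an enzyme gene of guanine nucleotide synthesis. A Prx-driven Cre acts, as background, in the mesenchyme of the limb bud; ectoderm, muscle, vessels, nerve and blood of the same limbs are not known as its targets. No further allele, agent or strain is given for either group, and the labels do not say whether embryos were pooled or shared a litter. The p-values therefore measure the spread between these libraries. That spread is not technical alone, because the 2 libraries of each genotype differ in sex type, as given below.

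Total counts ran from 28892215 to 69466572 per library, and in both genotypes replicate 2 was the deeper library. The first principal component (46.3% of the variance) separated replicate 1 from replicate 2, and the second (33.3%) separated the genotypes. By Xist and Ddx3y counts, WT replicate 1 and Prx-cKO replicate 2 were of the female type. WT replicate 2 and Prx-cKO replicate 1 were of the male type, so same-numbered libraries differed in sex type. Impdh2 itself was at 260 and 272 CPM (read counts scaled to a common library total) in the controls, against 170 and 199 CPM for Prx-cKO, so 69.3% of its mean level remained. The forelimb factor Tbx5 was at 91.2 CPM or more in every library and the hindlimb factor Pitx1 at 5.15 CPM or less. Fewer cells of a type and less RNA per cell cannot be told apart in such bulk samples, here and in all that follows.

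Hedgehog ligands are secreted proteins. In cells without ligand the receptor Ptch1 holds the membrane protein Smo inactive, and the Gli2 and Gli3 proteins, Gli3 above all, are processed into repressors of transcription. Ligand binding to Ptch1, helped by co-receptors such as Boc, frees Smo, which acts at the primary cilium to favour Gli activators. Ptch1, Gli1 and Hhip are themselves targets of the pathway, and Ptch1 and Hhip protein in turn bind and limit the ligand. In the limb bud Shh is made by posterior mesenchyme and sets the number and identity of digits, whereas Ihh is made later by maturing chondrocytes and paces the growth of the cartilage models.

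The ligand genes differed in opposite directions between the genotypes, while Ptch1 and Smo lay at overlapping levels. With edgeR's quasi-likelihood test, 0 of the 9 genes passed an adjusted p under 0.05, as did 0 of all genes tested (0% of 19987). At an unadjusted p under 0.05 there were 3 of 9, Shh higher and Ihh and Boc lower in Prx-cKO, against 10.5% of all genes tested (5.87% higher and 4.61% lower). The WT and Prx-cKO libraries did not overlap for 6 of the 9, of which Shh, Hhip and Gli1 were higher and Ihh, Boc and Gli2 lower in Prx-cKO; the same held for 43.2% of all genes tested (22.2% higher and 21.0% lower). The median log2 fold change was −0.08 over the 9 genes and −0.03 over all genes tested. DESeq2 called 1 of the 9, Ihh, against 1.86% of all genes.

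**Figure D1:**
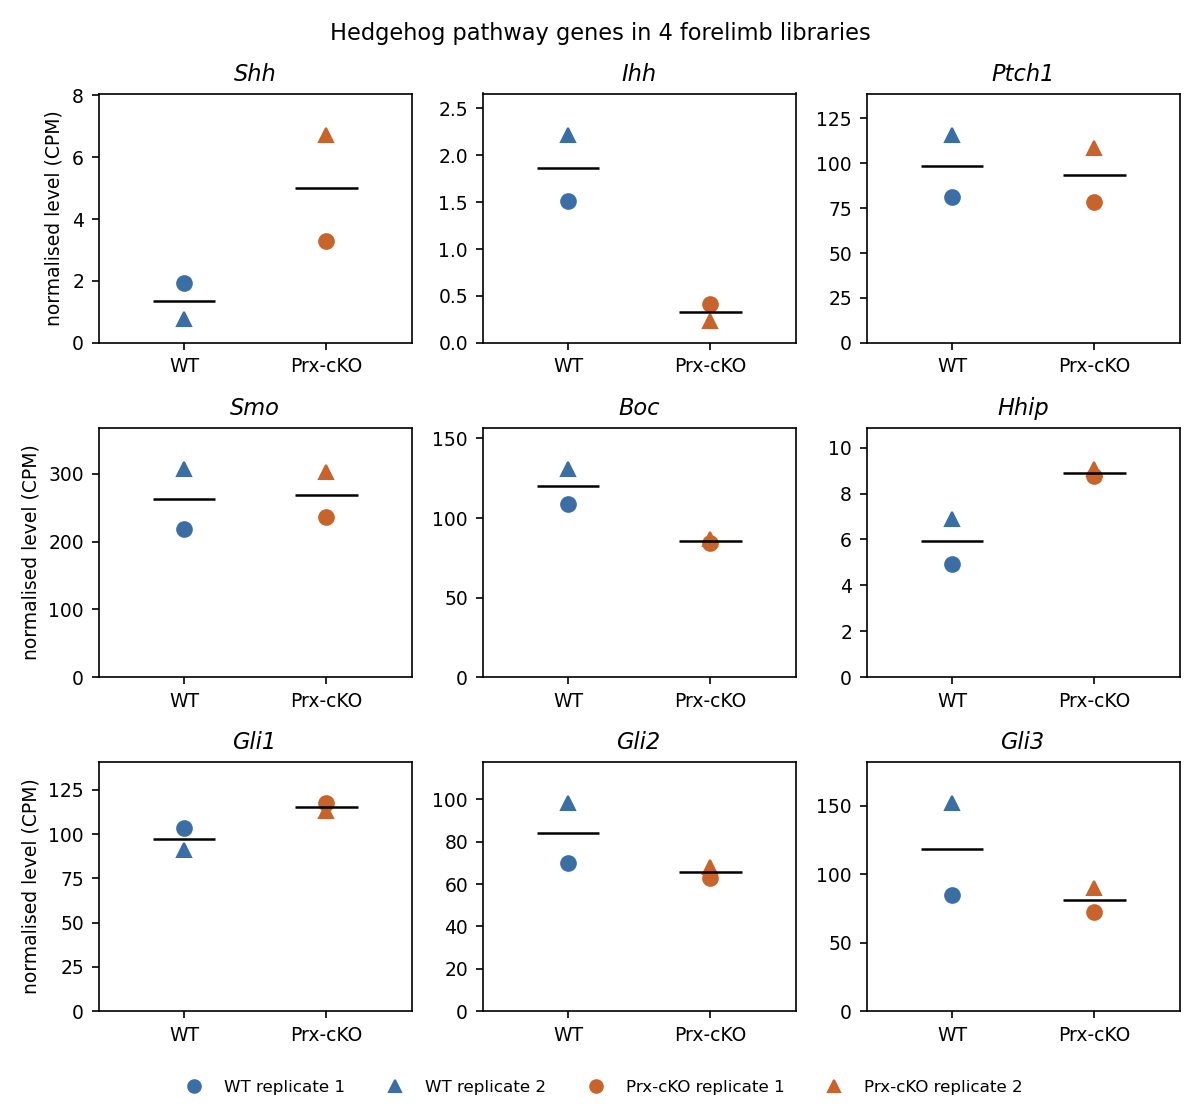
Normalised level in CPM (linear axis from 0) of each of the 9 genes in the WT and Prx-cKO forelimb libraries. Points are single libraries, circles for replicate 1 and triangles for replicate 2, and bars are group means; Shh lies higher and Ihh lower in both Prx-cKO libraries, and the Ptch1 and Smo points of the genotypes overlap.

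Shh (ENSMUSG00000002633, chromosome 5, 28456815 to 28467256 in GRCm38, minus strand), the posterior signal of the limb bud, was at 1.94 CPM in WT replicate 1, 0.780 CPM in WT replicate 2, 3.30 CPM in Prx-cKO replicate 1 and 6.71 CPM in Prx-cKO replicate 2. Both Prx-cKO libraries were thus above both WT libraries, with a wide spread inside each genotype. The counts behind these levels were 82, 56, 95 and 343 in the same order. Their exact Poisson intervals at 95% ran from 1.54 to 2.40 CPM and from 0.589 to 1.01 CPM in WT, and from 2.67 to 4.04 CPM and from 6.02 to 7.46 CPM in Prx-cKO, so no 2 libraries overlapped by counting error alone. The fit gave a log2 fold change of 1.98 for Prx-cKO minus WT (SE 0.60), a 3.95-fold higher level with a 95% interval of 1.38-fold to 11.3-fold, and edgeR gave an unadjusted p of 0.0195 and an adjusted p of 0.444. An absolute log2 fold change of this size or more was reached by 1.31% of all genes tested. Without WT replicate 1 the log2 fold change was 2.67 (edgeR adjusted p 0.0341), and without Prx-cKO replicate 2 it was 1.35 (edgeR adjusted p 1), the ends of the range over all alternatives.

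The exons of Shh overlap those of the non-coding genes Gm26894 and 9530036O11Rik on the other strand, over 12.7% and 15.7% of the exonic bases of Shh. Whether strand was used in counting is not given in the sources used here. Those genes had at most 5 counts and 1 count in any library, so few reads were assigned to either.

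Ihh (ENSMUSG00000006538, chromosome 1, 74945315 to 74951672, minus strand), the ligand of developing cartilage, was at 1.51 and 2.22 CPM in the WT limbs against 0.417 and 0.235 CPM in the mutants. Both Prx-cKO libraries lay below both WT libraries, the reverse of Shh. The counts were 64 and 159 in WT and 12 in each Prx-cKO library, and the exact Poisson intervals of the latter reached up to 0.729 and 0.410 CPM, below both WT levels. The group means were 1.86 ± 0.497 CPM and 0.326 ± 0.129 CPM (SD, n = 2). The fitted difference was −2.63 on the log2 scale (SE 0.56), with a 95% interval of −4.04 to −1.21, and edgeR gave an unadjusted p of 0.00479 and an adjusted p of 0.385. Ihh was thus 6.17-fold lower in Prx-cKO, and 0.625% of all genes tested had an absolute log2 fold change at least as large. DESeq2 called it (log2 fold change −2.56, adjusted p 0.0405), and so did edgeR without WT replicate 1 (−2.89, adjusted p 0.0418); over all alternatives the adjusted p ran from 0.0405 to 1.

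The balance between the ligand genes does not depend on library scaling, since both are counted in the same library. Per exonic base, Shh made up 57.8% and 27.4% of the sum of Shh and Ihh in the WT libraries (replicate 1 first), against 89.4% and 96.8% in those of Prx-cKO. Ihh and Shh were of the same order in WT, and Shh was the more abundant transcript in both Prx-cKO libraries. The ratio was chosen after the levels were seen and is given as a description.

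**Figure D2:**
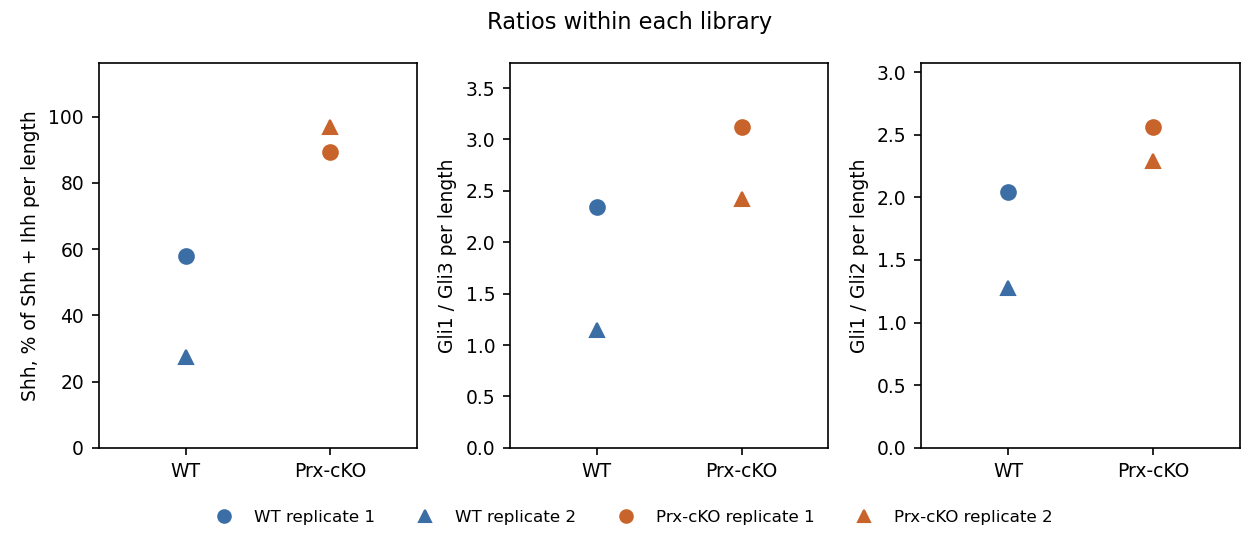
Ratios within each of the 4 forelimb libraries: Shh as a percent of Shh plus Ihh per exonic base (left), Gli1 over Gli3 per exonic base (middle) and Gli1 over Gli2 per exonic base (right), on linear axes from 0. Circles are replicate 1 and triangles replicate 2; all 3 ratios are higher in both Prx-cKO libraries than in both WT libraries.

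Ptch1 (chromosome 13, 63508328 to 63573598, minus strand), the ligand receptor and a standard readout of pathway activity, was at 81.1 and 116 CPM (WT) compared with 78.3 and 108 CPM (Prx-cKO). Replicate 2 was the higher library in both genotypes, and the genotypes overlapped. Their difference was −0.08 on the log2 scale (SE 0.25), with a 95% interval of −0.72 to 0.57 (edgeR adjusted p 0.934). It became 0.21 without WT replicate 2 and −0.34 without WT replicate 1, so its sign was not settled by these libraries.

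Smo (chromosome 6, 29735503 to 29761365, plus strand), the transducer that Ptch1 restrains, was at 218 and 307 CPM among controls and 236 and 303 CPM among Prx-cKO libraries. As for Ptch1, replicate 2 was the higher library in both genotypes, and the genotypes overlapped. Its log2 fold change was 0.04 (SE 0.23), with a 95% interval of −0.55 to 0.63 (edgeR adjusted p 0.967). With library size alone it was −0.064. As ratios of Prx-cKO to WT, the 95% intervals ran from 0.608 to 1.48 for Ptch1 and from 0.682 to 1.55 for Smo.

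Boc (chromosome 16, 44485049 to 44558897, minus strand), a co-receptor that binds the ligand beside Ptch1, was at 109 and 131 CPM in the WT limbs against 84.2 and 87.1 CPM in the mutants. The Prx-cKO libraries lay close together and below both WT libraries. Boc thus had a log2 fold change of −0.48 (SE 0.16), and edgeR gave an unadjusted p of 0.0271 and an adjusted p of 0.457. Leaving out WT replicate 2 brought it to −0.34 and leaving out WT replicate 1 to −0.64.

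Hhip (chromosome 8, 79965851 to 80058006, minus strand), a membrane protein that binds and sequesters Hedgehog ligands and is induced by them, was at 4.94 and 6.91 CPM (WT) compared with 8.77 and 9.06 CPM (Prx-cKO). It was higher in both Prx-cKO libraries than in either WT library. This was a difference of 0.58 on the log2 scale (SE 0.28), with an edgeR adjusted p of 0.537. Leaving out WT replicate 2 gave 0.86, and leaving out WT replicate 1 gave 0.33.

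Gli1 (chromosome 10, 127329882 to 127341974, minus strand), the activator whose transcription depends on the pathway, was at 104 and 90.9 CPM among controls and 117 and 113 CPM among Prx-cKO libraries. The difference was small, and the libraries did not overlap. Its log2 fold change was 0.25 (SE 0.15), with a 95% interval of −0.13 to 0.62 (edgeR adjusted p 0.605). Gli1 was the member whose log2 fold change spread least when single libraries were left out, from 0.16 to 0.31. Its exons overlap those of Arhgap9 and Gm47200 on the other strand over 1.24% and 5.31% of its exonic bases.

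Gli2 (chromosome 1, 118834132 to 119053619, minus strand), which supplies most Gli activator, was at 69.7 and 98.0 CPM in the WT limbs against 63.0 and 68.0 CPM in the mutants. Gli3 (chromosome 13, 15463235 to 15730026, plus strand), the main source of Gli repressor in the limb bud, was at 84.7 and 152 CPM (WT) compared with 72.2 and 89.7 CPM (Prx-cKO). Both were highest in WT replicate 2, and for Gli3 the genotypes overlapped. Prx-cKO differed from WT by −0.36 log2 units for Gli2 (SE 0.21, edgeR adjusted p 0.597), and by −0.55 for Gli3 (SE 0.31, edgeR adjusted p 0.588). WT replicate 2 carried much of both differences: without it they were −0.08 for Gli2 and −0.057 for Gli3. Without WT replicate 1 they were −0.62 and −0.94, the latter with an edgeR adjusted p of 0.0379, the lowest over the alternatives, where it reached up to 1. The exons of Gli3 share 1.96% of their bases with Gm6556 on the other strand.

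Within each library, Gli1 per exonic base was 2.35 and 1.15 times Gli3 in the WT libraries (replicate 1 first), against 3.12 and 2.42 times in those of Prx-cKO. The Prx-cKO values were higher than the WT values, although WT replicate 1 and Prx-cKO replicate 2 were close. Gli1 was 2.04 and 1.28 times Gli2 per exonic base in WT, against 2.56 and 2.29 times for Prx-cKO, again with both Prx-cKO values the higher. These ratios count transcripts and say nothing of protein processing.

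**Figure D3:**
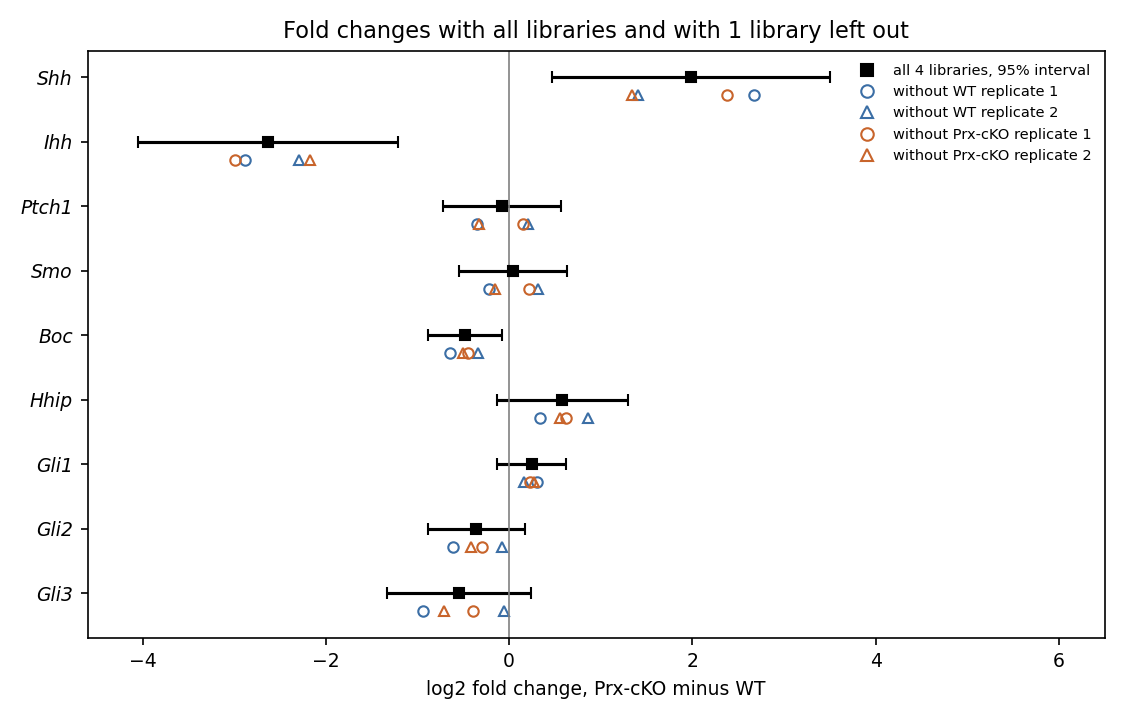
Log2 fold change of each gene, Prx-cKO minus WT, with all 4 libraries (black squares, 95% interval) and with 1 library left out (open symbols below each square). Shh and Ihh keep their direction in every fit shown, whereas Ptch1 and Smo fall on both sides of 0.

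The levels of different genes were compared per kilobase of annotated exon. In WT the order of the means was Smo (46.7 CPM per kb), Boc (26.9), Gli1 (19.5), Gli3 (12.3), Gli2 (12.2), Ptch1 (6.94), Hhip (0.653), Ihh (0.611) and Shh (0.477). Smo, Boc, Ptch1 and the Gli factors thus all stood above the ligands and Hhip, with the narrowest gap between Ptch1 and Hhip. Some neighbours in this order did not differ beyond their spread: Gli3 was at 12.3 ± 4.93 and Gli2 at 12.2 ± 2.91 CPM per kb (SD, n = 2), and Hhip, Ihh and Shh lay within the SD of Shh (0.287) of each other. Ptch1 lay below Gli2 and above Hhip by more than the SDs of either pair. In Prx-cKO Gli1 (23.1) stood above Boc (19.2), Shh was at 1.76 ± 0.847 above Hhip at 0.982 ± 0.0232, and Ihh was last at 0.107 ± 0.0423 CPM per kb (SD, n = 2). The place of Ptch1 depends on the length used, because its annotated exons sum to 14185 bases and its longest coding transcript to 7725: by the latter it stood above Gli2 in WT, at 12.7 against 12.6 CPM per kb.

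**Figure D4:**
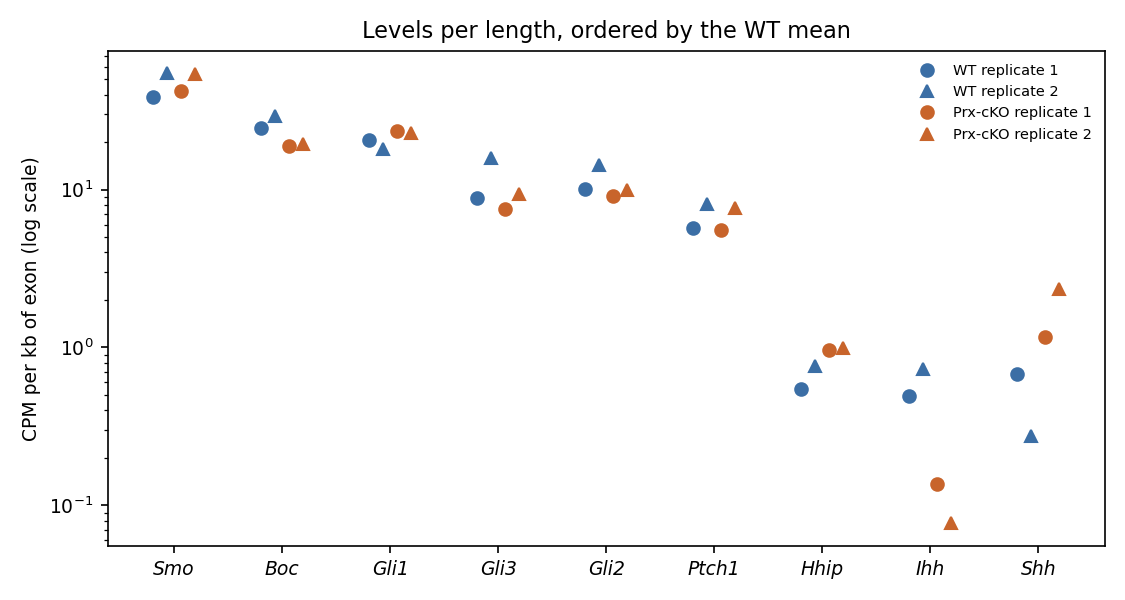
CPM per kilobase of exon on a log axis for each gene, ordered by its WT mean, in the 4 forelimb libraries. Circles are replicate 1 and triangles replicate 2, blue is WT and orange Prx-cKO; the ligand genes and Hhip lie well below the other 6 genes.

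Promoter sequences from RefSeq (GRCm38.p6, from 250 bases before to 50 after a gene's start) matched 6 of the 9 genes: Ihh, Ptch1, Smo, Hhip, Gli2 and Gli3. They were searched on both strands for the Gli recognition motif TGGGTGGTC and, as a choice made after that search, for its inner letters GGGTGGT, which lie within the motif. The full motif was in 0 of the 6 and in 0.253% of all 32851 promoters in the table, and the inner letters were in 1 of the 6, Gli2, and in 4.61% of all promoters. A match or its absence describes these letters in this window and nothing more. The promoter of Ptch1 is shown as that of a pathway target, that of Ihh as that of the member with the largest difference, and that of Gli2 for its match, which is in capitals; the last 2 were chosen after the values and matches were seen. They lie at chr13:63565686-63565985 (Ptch1), chr1:74951623-74951922 (Ihh) and chr1:119053570-119053869 (Gli2), all on the minus strand, and are written 5′ to 3′ in the direction of the gene. The Ptch1 window lies inside the annotated span of the gene given above, since the annotation reaches further upstream.
Ptch1: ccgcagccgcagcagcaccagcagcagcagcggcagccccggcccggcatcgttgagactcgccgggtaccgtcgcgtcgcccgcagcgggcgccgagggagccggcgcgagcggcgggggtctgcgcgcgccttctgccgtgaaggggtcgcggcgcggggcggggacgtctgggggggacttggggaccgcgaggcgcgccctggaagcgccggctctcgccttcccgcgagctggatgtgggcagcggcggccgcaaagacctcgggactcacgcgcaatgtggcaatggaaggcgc
Ihh: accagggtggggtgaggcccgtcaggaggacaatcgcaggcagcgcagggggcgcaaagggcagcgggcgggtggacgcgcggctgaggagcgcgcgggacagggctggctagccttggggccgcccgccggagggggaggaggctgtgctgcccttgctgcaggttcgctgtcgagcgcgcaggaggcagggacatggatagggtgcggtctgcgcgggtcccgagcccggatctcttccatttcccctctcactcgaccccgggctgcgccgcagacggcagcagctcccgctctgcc
Gli2: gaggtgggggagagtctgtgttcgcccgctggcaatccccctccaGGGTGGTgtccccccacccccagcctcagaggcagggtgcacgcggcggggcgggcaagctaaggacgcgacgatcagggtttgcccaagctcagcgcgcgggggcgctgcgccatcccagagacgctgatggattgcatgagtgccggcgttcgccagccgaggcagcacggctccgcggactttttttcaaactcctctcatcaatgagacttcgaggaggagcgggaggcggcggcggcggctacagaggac

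Other genes of the pathway, 25 in all from ligand release to signal transduction, were taken from a fixed list. None was called (0 of 25 by edgeR). At an unadjusted p under 0.05, 2 of 25 were higher, Dhh among them, and 0 lower, which is 8% against 10.5% of all genes tested. Their median log2 fold change was −0.06. Of 15 signal transduction genes 0 were at an unadjusted p under 0.05, and their log2 fold changes ran from −0.42 to 0.36.

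Dhh, the third mammalian ligand, best known from Schwann cells and the gonads, was at 0.638 and 0.432 CPM in the WT limbs against 0.974 and 1.59 CPM in the mutants. These levels rest on 27 to 81 counts per library. Both mutants were above both controls, by 1.35 on the log2 scale (SE 0.51, edgeR adjusted p 0.475). Of 6 nerve and glia markers 1, Foxd3, was at an unadjusted p under 0.05 and higher (5.87% of all genes tested were so). Their summed level was 105 and 104 CPM in WT and 118 and 140 CPM in Prx-cKO, none was at 0, and their part in the Dhh values was not tested.

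Cdon, a co-receptor related to Boc, was at 140 and 164 CPM (WT) compared with 85.0 and 124 CPM (Prx-cKO), a log2 difference of −0.54 (SE 0.23) at which edgeR gave an adjusted p of 0.487. It thus lay on the same side as Boc. Grk2, a kinase that acts on active Smo, was 0.36 log2 units higher in Prx-cKO (SE 0.18), with an edgeR adjusted p of 0.542. The co-receptor Gas1, the antagonist Sufu and the ciliary kinesin Kif7 were within 0.12 log2 units of 0, at 0.12, −0.06 and 0.04.

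Hedgehog transduction in mammals needs the primary cilium. Of 12 cilium genes 10 were lower and 2 higher in Prx-cKO (10554 of all 19987 genes tested were lower), with a median log2 fold change of −0.17 (−0.03 over all genes), none called by edgeR (0 of 12) and 0 at an unadjusted p under 0.05 (10.5% of all genes). The smallest p belonged to Ift80, Kif3a, Arl13b and Dync2h1, which serve transport in the cilium or its membrane, with log2 fold changes of −0.34, −0.37, −0.31 and −0.45. Dync2h1 was at −0.09 without WT replicate 2.

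Genes that respond to Shh or maintain it in the posterior limb bud were mostly lower, although Shh was higher. Of 16, 13 were lower and 3 higher, with a median of −0.37. The 8 limb mesenchyme and limb-type markers described below also had a median of −0.37. At an unadjusted p under 0.05 there were 5 lower and 1 higher (37.5% against 10.5% of all genes tested), and 0 were called by edgeR. Hoxd10 was at 118 and 121 CPM among controls and 50.4 and 56.5 CPM among Prx-cKO libraries (log2 fold change −1.16, SE 0.15, edgeR adjusted p 0.32). Hoxd13, a digit-forming Hox gene, was at 291 and 401 CPM in the WT limbs against 144 and 134 CPM in the mutants (−1.32, SE 0.20, edgeR adjusted p 0.332). Both lay well below WT in both Prx-cKO libraries, and DESeq2 called both (adjusted p 2.2e-06 and 3.64e-05), whereas the highest edgeR adjusted p with 1 library left out was 1 for each.

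Hand2, which switches Shh on in posterior mesenchyme, was at 165 and 154 CPM in WT libraries compared with 101 and 114 CPM in those of Prx-cKO (log2 fold change −0.57, SE 0.15, edgeR adjusted p 0.422). The gene for the BMP antagonist Grem1, which relays Shh to the apical ridge, was at 23.6 and 23.5 CPM among controls and 29.1 and 32.8 CPM among Prx-cKO libraries. Shh and Hand2 thus differed in opposite directions, and Shh and Grem1 in the same direction. Mycn, a growth regulator that responds to Shh, was the one gene of the list at an unadjusted p under 0.05 and higher, at 33.7 and 83.9 CPM in the WT limbs against 131 and 156 CPM in the mutants (log2 fold change 1.28, SE 0.43, edgeR adjusted p 0.46). Its log2 fold change was 2.1 without WT replicate 2 (edgeR adjusted p 0.00605) and 0.74 without WT replicate 1, and its adjusted p ran up to 1 over the alternatives.

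Of 7 genes of the anterior limb bud, where Shh is absent and Gli3 repressor prevails, 0 were called by edgeR. At an unadjusted p under 0.05 there were 2, both lower and Pax9 among them. That is 28.6%, against 10.5% of all genes tested (4.61% lower). Pax9 was at 7.18 and 11.9 CPM among controls and 2.19 and 1.53 CPM among Prx-cKO libraries (−2.40 on the log2 scale, SE 0.41, edgeR adjusted p 0.332). Pax9 was thus lower in both Prx-cKO libraries. Irx3 and Irx5, a neighbouring pair of anterior factors, were at 0.71 and 0.43, the first of them at 0.27 without WT replicate 2 and at 1.33 without WT replicate 1 (edgeR adjusted p 0.0156, the lowest over alternatives that reach up to 1).

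The cartilage genes among which Ihh works were mostly lower in Prx-cKO. Of 11, 10 were tested; 9 were lower and 1 higher, 8 were lower at an unadjusted p under 0.05 (80% against 10.5% of all genes tested), and the median log2 fold change was −1.47, with 0 called by edgeR. Acan, a cartilage proteoglycan, was at 8.29 and 10.7 CPM in the WT limbs against 0.661 and 0.391 CPM in the mutants (−4.25, SE 0.42, edgeR adjusted p 0.26). Sox9, Col2a1 and Sox6 were at −1.40, −1.39 and −1.53, with edgeR adjusted p of 0.32, 0.32 and 0.332. DESeq2 called all 4 of these genes. The summed level of the list was 806 and 851 CPM in WT and 414 and 366 CPM in Prx-cKO, and its part in the Ihh values was not tested.

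Pthlh, the partner of Ihh in the loop that delays chondrocyte maturation, was at 1.96 and 3.15 CPM (WT) compared with 1.01 and 0.489 CPM (Prx-cKO). Its receptor gene Pth1r was the member of the list that was higher, at 92.8 and 87.9 CPM among controls and 96.6 and 108 CPM among Prx-cKO libraries. Ihh and Pthlh were thus both lower and Pth1r was not. Col10a1, which marks chondrocytes past the Ihh stage, had too few counts to be tested, at 5 and 12 in WT and at 0 and 6 in Prx-cKO, where a count of 0 allows up to 3 counts, or 0.104 CPM. Per count of Acan, Ihh was at 0.182 and 0.207 in WT and at 0.632 and 0.60 in Prx-cKO, and per 1000 counts of Col2a1 at 3.09 and 4.37 in WT and at 1.95 and 1.41 in Prx-cKO. The Ihh difference was therefore smaller than that of Acan and larger than that of Col2a1 in both Prx-cKO libraries.

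**Figure D5:**
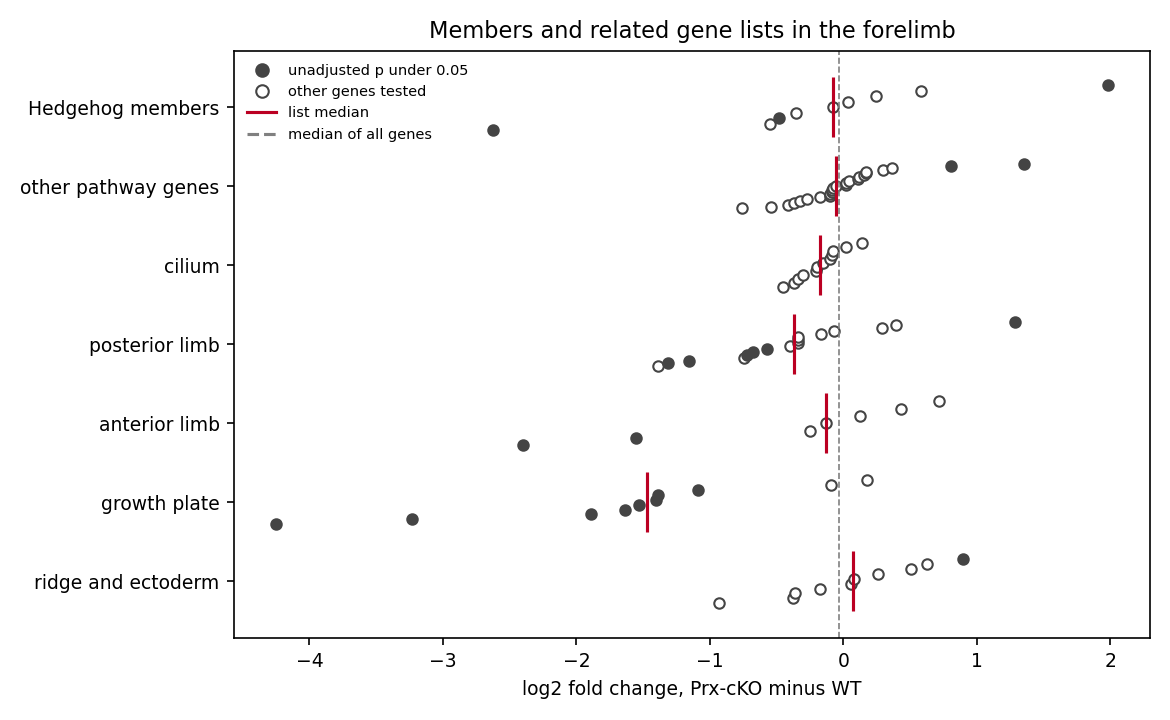
Log2 fold change of each gene, Prx-cKO minus WT, for the 9 Hedgehog genes and 6 related lists. Filled points have an unadjusted p under 0.05, red bars are list medians and the dashed line is the median of all genes tested; the growth plate list lies furthest to the lower side, with a median of −1.47.

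Markers of other tissues were examined in the same libraries. In the apical ridge and surface ectoderm, not known as a target of this Cre, 1 of 10 markers was at an unadjusted p under 0.05, about the 10.5% of all genes tested. It was Fgf8, the ridge signal that sustains Shh, at 14.1 and 13.1 CPM in the WT limbs against 23.8 and 26.6 CPM in the mutants (log2 fold change 0.89, SE 0.19, edgeR adjusted p 0.385). The summed level of these markers was 330 and 384 CPM in WT and 376 and 318 CPM in Prx-cKO, so it overlapped. Krt14 alone gave 144 and 195 CPM of it in WT and 148 and 112 CPM in Prx-cKO. Sp8 was at 12.1 and 11.9 CPM in WT and 18.1 and 16.1 CPM in Prx-cKO. With no overlap between the genotypes, 2 of the 10 were higher, Fgf8 and Sp8, and 2 lower, Fgf4 and Wnt7a. Of all genes tested, 22.2% and 21.0% were so. Fgf4, another ridge growth factor of the Shh loop, was at 0.354 and 0.474 CPM in WT and 0.104 and 0.294 CPM in Prx-cKO. These levels rest on 3 to 34 counts per library. Wnt7a was at 16.1 and 16.9 CPM in WT and 13.8 and 15.4 CPM in Prx-cKO. The genotypes overlapped for Fgf9 (16.1 and 8.51 CPM in WT, 21.9 and 16.0 CPM in Prx-cKO). They also overlapped for Fgf17 (1.98 and 0.975 CPM in WT, 0.522 and 1.53 CPM in Prx-cKO).

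Of all genes tested, 5.87% were higher and 4.61% lower at an unadjusted p under 0.05, against which the next counts stand. Of 8 limb mesenchyme and limb-type markers 5 were lower and 3 higher. At an unadjusted p under 0.05, 4 were lower, Prrx1, Lmx1b, Tbx5 and Tbx4. Prrx2 had a log2 fold change of −0.14, and Twist1, Msx1 and Pitx1 were higher, at 0.17, 0.05 and 0.75. The summed level of the 8 was 1147 and 1256 CPM in WT and 868 and 953 CPM in Prx-cKO. Skeletal muscle markers were higher, 5 of 6 at an unadjusted p under 0.05, with a summed level of 150 and 147 CPM in WT and 361 and 222 CPM in Prx-cKO. Endothelial markers (2 of 5, all higher) summed to 104 and 112 CPM in WT and 139 and 142 CPM in Prx-cKO, and myeloid markers (2 of 4) to 17.9 and 21.5 CPM in WT and 35.6 and 34.7 CPM in Prx-cKO. Of 5 erythroid markers 0 were at an unadjusted p under 0.05, and their sums overlapped between the genotypes. None of these markers was at 0 in any library. The part of these tissues in the values of the 9 genes was not tested.

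Genes with the profile most like that of Gli1 or Ihh across the 4 libraries were named by the distance between centred log2 CPM values, with no test. For Gli1 the nearest among 11113 protein-coding genes were Spryd3, Pvr, Postn, Alkbh2 and Mtch2, at distances of 0.0118 to 0.0298. For Ihh they were Pax9, Gdf5, Papss2, Col11a2 and Rflna, at distances of 0.22 to 0.693 among 11114 genes. Gdf5, which marks joint-forming cells, was at 26.2 and 36.8 CPM (WT) compared with 7.41 and 5.56 CPM (Prx-cKO). The likeness rests on 4 libraries only.

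In the 8 osteoclast culture libraries of the same series, grown from bone marrow of WT or Impdh2 LysM-cKO mice with M-CSF and a protocol that adds the osteoclast cytokine RANKL, the pathway was detected in part. They carry the title R0D3 or R40D3, 4 of each, and which of them received RANKL is not stated here. These libraries were counted in separate tables and scaled on their own, so their CPM values are given only as levels. Shh had 0 counts in all 8, which allows up to 3 counts or 0.187 CPM in the library where that limit is highest. Ihh, Hhip, Gli1 and Gli2 had at most 6 counts in any library, and Gli3 had 13 to 60 counts (median 2.57 CPM). Ptch1 was at 10.4 to 21.8 CPM with a median of 14.6, and Smo had a median of 6.88 CPM and at most 9.15 CPM; these values are not per length and give no order between genes. Boc ran from 0.849 to 2.05 CPM in the 4 cultures titled R0D3 and from 6.88 to 14.6 CPM in the 4 titled R40D3.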

How the data were processed

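Gene expression was measured by RNA sequencing. The values the authors deposited are unnormalised read counts by Ensembl gene identifier, with 1 column per library (replicates not pooled), in 1 forelimb and 2 culture tables. FastQC 0.11.2, Trimmomatic 0.36, HISAT2 2.1.0 and DESeq2 1.12.4 and the build GRCm38 are listed per the submitters' processing notes; the counting tool, the annotation release and the use of strand are not given in the sources used here. TRIzol served for extraction and a kit for mRNA libraries, per the labels' protocols.

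Of the identifiers, 99.6% matched a symbol. Positions and exon lengths came from GENCODE M21 (GRCm38), promoters from RefSeq (GRCm38.p6). Genes were kept by filterByExpr of edgeR 4.0.16 (R 4.3.3), libraries were scaled by TMM, and the 4 forelimb libraries were fitted with the quasi-likelihood test (legacy = FALSE), two-sided, Benjamini-Hochberg adjusted over the 19987 genes, with the threshold for a call at 0.05. The SE is the size of the log2 estimate divided by the square root of F. Alternatives used DESeq2 1.42.0 and limma 3.58.1 (voom). The pipeline was tested on simulated counts. Intervals and the floor of 3 counts cover counting error alone, since no molecular identifiers separate molecules from copies.

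The 9 genes and the lists were chosen with earlier results of these data known. The text names the 9 genes, from each of the pathway, cilium, posterior, anterior and growth plate lists up to 4 genes with the smallest p, the 5 nearest profiles to Gli1 and to Ihh among protein-coding genes averaging 5 CPM or more (log2 CPM with a prior count of 2), Impdh2 and marker genes; 2 genes that this rule names are not reported here. Gas1, Sufu, Kif7, Grem1, Pthlh, Pth1r, Col10a1, Fgf8, Fgf4, Sp8 and Krt14 were singled out after their values were seen. The same holds for Foxd3, Prrx1, Prrx2, Lmx1b, Tbx4, Twist1, Msx1, Wnt7a, Fgf9, Fgf17 and Boc's culture levels.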

Additional observations from a re-analysis of the deposited data

How the results depend on the processing

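The 12 alternatives were 2 scalings, 2 filters, DESeq2, limma-voom, edgeR with legacy = TRUE, the replicate block and leaving out each library. The log2 fold changes of Shh, Ihh, Boc, Hhip, Gli1, Gli2 and Gli3 kept their direction under all 12. That of Smo was −0.064 with library size alone, −0.0012 with no filter on low counts, and from −0.22 to 0.31 when 1 library was left out; that of Ptch1 was from −0.34 to 0.21 when 1 library was left out. DESeq2 called 371 genes and 1 of the 9, Ihh (−2.56). When 1 library was left out, edgeR called from 0 to 603 genes and from 0 to 3 of the 9, the most without WT replicate 1 (603 genes; Shh, Ihh and Gli3), and 104 genes without WT replicate 2, and log2 fold changes ran from 1.35 to 2.67 for Shh, from −2.99 to −2.17 for Ihh and from −0.94 to −0.057 for Gli3. In these fits the lone library of an arm is assumed to vary like the other group. Genes at an unadjusted p under 0.05 numbered 3 of the 9 with all libraries, 5 when WT replicate 1 was left out and 0 when Prx-cKO replicate 2 was. The median log2 fold change of all genes tested ran from −0.13 (library size alone) to 0.01 (limma-voom).

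The groups share replicate numbers that the labels do not explain. Deviations of same-numbered libraries correlated across genes (r = 0.261), but there are only 2 numbers, which also differ in depth, so no pairing was assumed. The same-numbered libraries of the genotypes were of opposite sex type. With the replicate block edgeR called 0 genes and 0 of the 9, with log2 fold changes of 2.02 for Shh and −2.66 for Ihh. Depth limits Ihh most, with 12 counts in each Prx-cKO library.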
